A study of Mus musculus with 32 samples.

Results

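Fibroblast growth factor (FGF) ligands were followed in mouse embryonic stem cells (ESCs) and the cells derived from them. The 10 genes are Fgf1, Fgf2, Fgf3, Fgf4, Fgf8, Fgf9, Fgf10, Fgf15, Fgf17 and Fgf18, chosen by symbol among 20612 genes listed in any library. The cells were of the J1 line, from the 129S4/SvJae strain, and all groups share that origin. Each stage was cultured with BPA, BPF or BPS (bisphenols A, F and S) at 100 nM, or with the solvent DMSO (dimethyl sulfoxide) as control. These compounds are phenols used in plastics, in which the phenol rings are joined by a carbon with methyl groups in BPA, a methylene group in BPF and a sulfonyl group in BPS. Of the 8 stages, day 0 was the ESCs themselves, and days 4, 6, 9, 12 and 20 were embryoid bodies (EBs), in which cells differentiate as free-floating clusters. The other stages were day 8 EBs given retinoic acid (RA) for their last 4 days, called RA EBs, and neural progenitor cells (NPCs) grown as a monolayer to day 10. EBs of days 6, 9, 12 and 20 form the global branch, and RA EBs with NPCs the neural branch. Each of the 32 combinations of stage and treatment had 1 library.

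FGF ligands are secreted or released proteins that bind receptor tyrosine kinases together with heparan sulfate, and the receptors signal in large part through the ERK kinases. In embryonic stem cells the ligand FGF4 drives the exit from the undifferentiated state. Later in the embryo, FGF8 patterns the primitive streak and the midbrain-hindbrain boundary, and FGF15 acts in the neural tube and, as a hormone from the gut, on bile acid synthesis.

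Fgf3, Fgf4 and Fgf15 are neighbours on chromosome 7 of GRCm38, at 144838612 to 144843348, 144861386 to 144865245 and 144896532 to 144900953. Gaps of 18037 and 31286 bases separate them in that order. Among the others, Fgf8 lies on chromosome 19 (45736491 to 45742941), Fgf10 on chromosome 13 (118714699 to 118792573) and Fgf18 on chromosome 11 (33116970 to 33147400). Fgf9 and Fgf17 are both on chromosome 14, at 58070671 to 58112854 and at 70636203 to 70642268, and Fgf2 is on chromosome 3 (37348477 to 37410106). All 10 are annotated as protein-coding. Whether the authors counted by strand is not given in the sources used here. Nudt6 overlaps Fgf2 by 5125 bases, and Fgf1 lies within Arhgap26, so how reads from these stretches were assigned is not known. Every listed expected count of Fgf2 was whole, as were 78.6% of those of Fgf1. Fgf10 had no whole expected count in any of its 32 libraries, meaning that reads were shared with other sequences, so its values are uncertain.

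RefSeq gives promoters for 6 of the 10 ligands on GRCm38.p6. Those printed are of 3 ligands that fell together when ESCs formed EBs (Fgf3, Fgf4 and Fgf10), 2 of them neighbours, and of Fgf18, which led in NPCs. Each run holds the 250 bases before the annotated start, read 5′ to 3′ on the gene's strand. Capitals mark matches, on either strand, to a TATA box (TATAAA), a nuclear receptor half-site (AGGTCA), a GC box (GGGCGG) or part of the octamer (TGCAAAT).
Fgf4, chr7:144861136-144861385, plus strand: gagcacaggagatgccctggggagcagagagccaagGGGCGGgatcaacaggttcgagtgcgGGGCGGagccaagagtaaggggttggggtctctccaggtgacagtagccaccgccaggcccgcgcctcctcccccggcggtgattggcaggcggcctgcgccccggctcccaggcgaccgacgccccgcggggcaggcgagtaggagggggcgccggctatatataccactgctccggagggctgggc
Fgf3, chr7:144838362-144838611, plus strand: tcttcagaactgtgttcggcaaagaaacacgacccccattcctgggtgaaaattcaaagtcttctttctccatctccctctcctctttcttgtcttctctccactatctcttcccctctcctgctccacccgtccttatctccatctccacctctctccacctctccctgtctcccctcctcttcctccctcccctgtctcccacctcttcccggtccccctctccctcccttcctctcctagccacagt
Fgf10, chr13:118714449-118714698, plus strand: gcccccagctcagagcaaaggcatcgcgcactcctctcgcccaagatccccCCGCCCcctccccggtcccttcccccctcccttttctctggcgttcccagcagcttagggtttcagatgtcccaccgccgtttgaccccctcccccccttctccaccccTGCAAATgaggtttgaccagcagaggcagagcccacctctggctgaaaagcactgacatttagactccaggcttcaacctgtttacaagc
Fgf18, chr11:33147401-33147650, minus strand: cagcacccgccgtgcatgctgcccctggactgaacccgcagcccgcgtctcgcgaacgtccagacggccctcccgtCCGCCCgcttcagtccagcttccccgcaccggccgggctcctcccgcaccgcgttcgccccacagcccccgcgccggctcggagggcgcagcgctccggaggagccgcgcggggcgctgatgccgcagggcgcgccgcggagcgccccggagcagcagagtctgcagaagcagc
The Fgf4 promoter held the GC box at 214 and 188 bases before the start. Fgf10 held a GC box on the other strand at 199 bases and the octamer part at 90 bases before the start, and Fgf18 a GC box on the other strand at 174 bases. The searched letters did not occur in the window of Fgf3. Of 32851 promoters of the same length, 32.7% held the GC box on either strand, 3.56% the octamer part, 14% the half-site and 12.4% the TATA box. The motifs do not overlap one another in these windows, and a match describes letters only.

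Total expected counts ran from 9574833 to 11070149 per library, and 16326 to 17839 genes were listed. Of the 10 ligands, 9 passed the filter on low counts and entered the tests over 15632 genes, and Fgf2 did not. The stage labels were set beside marker lists, given as summed FPKM, the read level scaled to transcript length and library depth, and as mean ± SD over the 4 libraries of a stage. The 8 stem cell markers summed to 2760 ± 53.8 in ESCs and 144 ± 13.3 at EB day 20 (SD, n = 4). The 7 hindbrain and spinal cord markers summed to 634 ± 33.3 in RA EBs and 753 ± 27.1 in NPCs, and to at most 21 on average at any other stage. NPC libraries summed to 2420 ± 94.6 for 7 neuron markers and 530 ± 40.2 for 8 neural progenitor markers. Sums of different lists are not on a common scale and do not give shares of cells. The next highest neuron sum was 1360 ± 166 at EB day 20. For neural progenitor markers the highest sum was that of EB day 12, at 794 ± 169, above that of NPCs. In bulk RNA, fewer cells of a type and less RNA per cell cannot be told apart. The labels name no separate cultures, so p-values measure the spread between these libraries. The 4 libraries of a stage differ in treatment and stand in for replicates, so SDs over them include any differences between treatments.

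**Figure D1:**
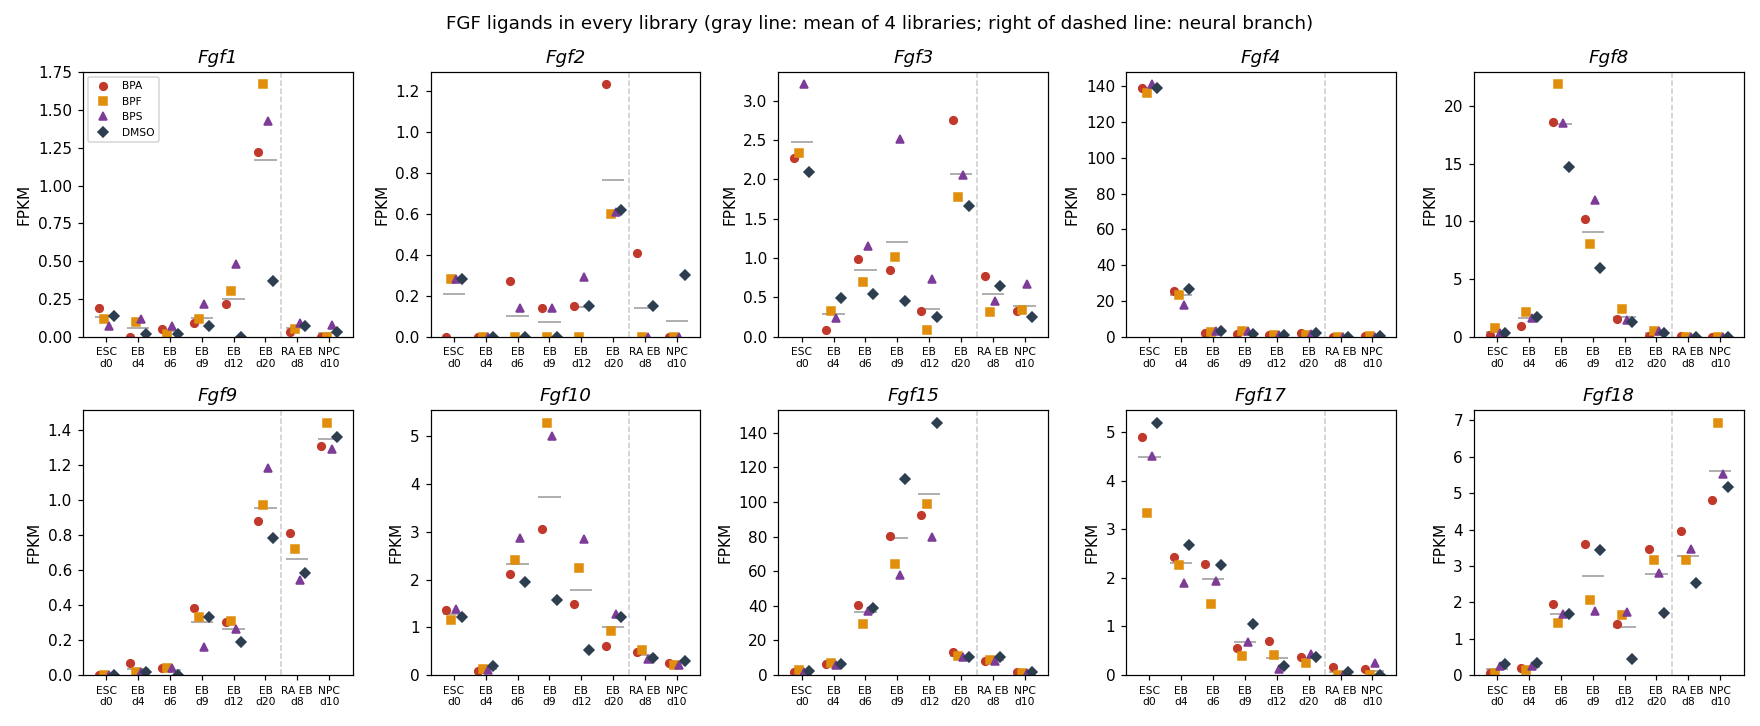
FPKM of each of the 10 FGF ligands (vertical axis, scale set per gene) in every library at the 8 stages (horizontal axis), with BPA, BPF, BPS and DMSO as separate symbols and the mean of 4 libraries as a gray line. Fgf4 is highest in ESCs, Fgf8 at EB day 6, Fgf15 at EB days 9 and 12, and Fgf9 and Fgf18 in NPCs.

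The ligands took turns as the most abundant. Summed over the 10 genes, ligand FPKM was 150 ± 2.54 in ESCs, 34.5 ± 4.73 at EB day 4, 64.9 ± 4.05 at day 6, 99.2 ± 20.5 at day 9, 111 ± 26.7 at day 12 and 22.5 ± 2.6 at day 20. It was 14.2 ± 1.06 in RA EBs and 9.55 ± 0.682 in NPCs. Fgf4 made up 92.4 ± 0.36% of that sum in ESCs and 67.9 ± 3.29% at EB day 4. Fgf15 held the largest share at 5 stages, with 56.1 ± 5.34% at EB day 6, 78.4 ± 8.12% at day 9, 93.2 ± 3.07% at day 12, 50.2 ± 2.24% at day 20 and 62.8 ± 6.16% in RA EBs. In NPCs Fgf18 led with 58.6 ± 5.71%, followed by Fgf15 with 15.2 ± 4.52% and Fgf9 with 14.2 ± 0.625%. Among these 10 genes, then, Fgf4 led early, Fgf15 in EBs from day 6 and in RA EBs, and Fgf18 in the neural monolayer. The shares leave out 12 other genes of the family, among them Fgf5 and the Fgf11 to Fgf14 group, whose proteins stay inside the cell. Those 12 summed to 3.4 ± 0.234 FPKM in ESCs, 61 ± 5.96, 34.7 ± 11.5, 8.43 ± 1.11, 14 ± 1.66 and 44.8 ± 2.46 at EB days 4, 6, 9, 12 and 20, 10.9 ± 1.63 in RA EBs and 27.1 ± 1.61 in NPCs. At EB days 4 and 20 and in NPCs that was above the sum of the 10.

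**Figure D2:**
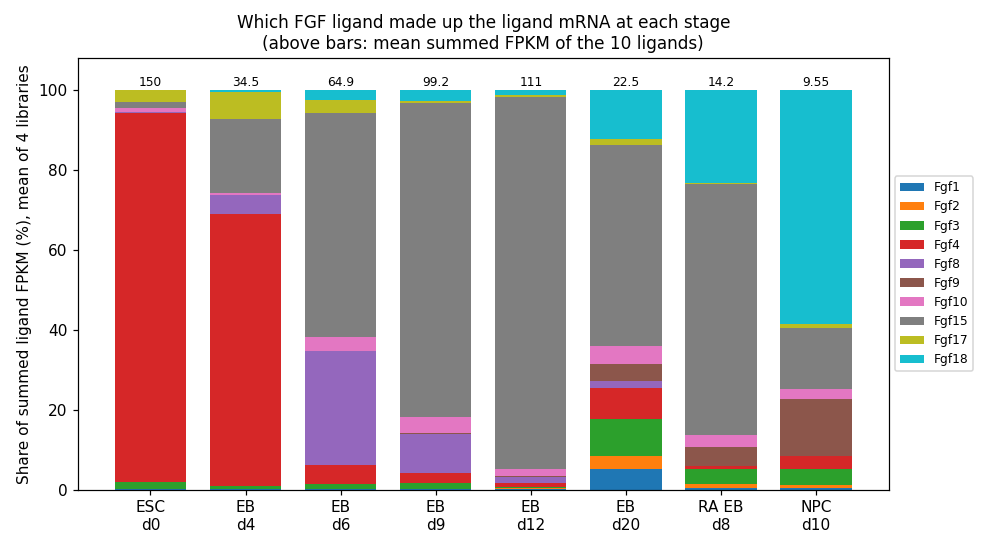
Share of the summed ligand FPKM held by each of the 10 ligands (vertical axis, percent, mean of 4 libraries) at each stage (horizontal axis), with the mean summed FPKM above each bar. The Fgf4 segment fills 92.4% of the ESC bar, Fgf15 93.2% of the EB day 12 bar and Fgf18 58.6% of the NPC bar.

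Fgf4 encodes a ligand that stem cells secrete and that acts back on them and their neighbours. In ESCs it was at 139 FPKM with BPA, 136 with BPF, 141 with BPS and 139 with DMSO. At EB day 4 it was at 25.4, 23.5, 17.99 and 26.9 FPKM in the same order, so no EB library overlapped an ESC library. The log2 change of EB day 4 over ESCs was -2.55 ± 0.16 (SE, adjusted p = 9.7e-14, edgeR quasi-likelihood test with Benjamini-Hochberg adjustment over all genes tested). The fall went on to EB day 6, where levels were 2.25, 2.79, 3.34 and 3.50 FPKM (log2 change -3.03 ± 0.19 over day 4, adjusted p = 2.8e-13). Day 9 stood at 2.36 ± 0.982 and day 12 at 0.83 ± 0.0735 FPKM (log2 change -1.53 ± 0.28, adjusted p = 8.5e-05). Day 20 averaged 1.76 ± 0.462 FPKM, with all 4 libraries above all 4 of day 12, at a log2 change of 0.97 that stayed under the size of 1 required for a call. RA EBs had the least, at 0.12, 0.09, 0 and 0.16 FPKM, with a log2 change of -8.05 ± 0.32 over EB day 4 (adjusted p = 3.2e-18). NPCs had 0.39, 0.46, 0.16 and 0.23 FPKM from 38 counts against 12 counts in RA EBs. That log2 change of 1.80 ± 0.69 (adjusted p = 0.021) was not called without the BPA libraries (adjusted p = 0.059) or without the BPF libraries (adjusted p = 0.11).

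Fgf17 and Fgf3, both ligands of the developing embryo, and Fgf10, a mesenchymal ligand of lung and limb buds, were also present in ESCs. Fgf17 was highest there, at 4.89, 3.33, 4.50 and 5.19 FPKM (BPA, BPF, BPS and DMSO), and EB day 4 had 2.42, 2.26, 1.90 and 2.68 FPKM, without overlap. Its log2 change of -0.92 (adjusted p = 0.0074) fell short of a call, as did the step to day 6. At EB day 9 it fell to 0.55, 0.39, 0.69 and 1.05 FPKM, against 2.28, 1.47, 1.93 and 2.26 at day 6 (log2 change -1.63 ± 0.35, adjusted p = 0.00034). Later stages held at most 0.7 FPKM in any library. Fgf3 fell to 0.08, 0.33, 0.24 and 0.49 FPKM at EB day 4, against 2.27, 2.34, 3.21 and 2.10 FPKM in ESCs (log2 change -3.05 ± 0.41, adjusted p = 3e-07). Fgf3 returned later, to 2.75, 1.78, 2.06 and 1.66 FPKM at EB day 20, against 0.33, 0.08, 0.74 and 0.25 at day 12 (log2 change 2.48 ± 0.41, adjusted p = 5.8e-06). Its level at day 20 overlapped that in ESCs. Its rise between EB days 4 and 6 (log2 change 1.46 ± 0.47, adjusted p = 0.01) was not called without the BPA libraries (adjusted p = 0.12) or without the BPS libraries (adjusted p = 0.053).

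Fgf10 moved down, up and down again. EB day 4 had 0.08, 0.13, 0.11 and 0.18 FPKM, against 1.37, 1.16, 1.38 and 1.21 in ESCs (log2 change -3.32 ± 0.42, adjusted p = 1e-07). At EB day 6 it was at 2.11, 2.42, 2.87 and 1.94 FPKM, above every library of day 4 (log2 change 4.13 ± 0.40, adjusted p = 1.9e-09). The highest mean was 3.73 ± 1.75 FPKM at day 9, where the treatments differed widely. It fell at day 12 to 1.77 ± 1 FPKM (log2 change -1.12 ± 0.28, adjusted p = 0.0023), although the libraries of days 9 and 12 overlapped. Neural stages were low, at 0.425 ± 0.0954 FPKM in RA EBs and 0.242 ± 0.0403 in NPCs.

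Fgf8 marked EB days 6 and 9. Its libraries held 18.6, 21.9, 18.5 and 14.7 FPKM at day 6 (BPA, BPF, BPS and DMSO), against 0.93, 2.17, 1.60 and 1.75 at day 4 (log2 change 3.49 ± 0.25, adjusted p = 3.3e-11). The earlier step, EB day 4 over ESCs (0.412 ± 0.243 FPKM), was also called, at 1.98 ± 0.37 (adjusted p = 5.3e-05). At day 9 the level fell to 10.3, 8.08, 11.9 and 5.98 FPKM (log2 change -1.09 ± 0.21, adjusted p = 0.00015), and without the BPF libraries this change was -0.98, just under the size required. Day 12 averaged 1.68 ± 0.5 FPKM (log2 change -2.46 ± 0.26, adjusted p = 3.8e-08) and day 20 averaged 0.363 ± 0.192 (log2 change -2.25 ± 0.38, adjusted p = 1.2e-05). Its high levels thus lay at days 6 and 9, between lower libraries at days 4 and 12. The neural branch was close to empty of it, with 1 count in the 4 RA EB libraries and 0 in the 4 NPC libraries. Set against 76 counts at EB day 4, the RA EB count gave a ratio of 0.0125 (95% interval 0.000314 to 0.0721, counting error only). The 9 primitive streak markers summed to 5.6 ± 0.433 FPKM at EB day 4 and 170 ± 92.2 at day 6. Their sum was 69.7 ± 15.3 at day 9 and 46.3 ± 6.82 at day 12. In the DMSO libraries alone the streak sum did not follow Fgf8 down. It was 41.9, 49.7 and 40.3 FPKM at days 6, 9 and 12, where Fgf8 was at 14.7, 5.98 and 1.29. Of 7 streak markers tested, 6 rose between days 4 and 6 and none fell, and their part in the Fgf8 result was not tested.

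Fgf15 was highest in EBs of days 9 and 12. It was at 2.02, 2.69, 2.02 and 2.47 FPKM in ESCs and rose at EB day 4 (6.36 ± 0.674 FPKM, log2 change 1.49 ± 0.19, adjusted p = 1.2e-07). At day 6 it was at 40.8, 29.3, 37.1 and 38.7 FPKM (log2 change 2.47 ± 0.15, adjusted p = 1.1e-13), with no overlap with day 4. Day 9 had 80.4, 64.2, 58.1 and 113 FPKM, again above every library of the step before. That log2 change was 1.02 ± 0.13 (adjusted p = 1.9e-07), and 0.84 without the DMSO libraries, which is under the size required. At day 12 the libraries held 92.7, 99.0, 80.1 and 146 FPKM, overlapping those of day 9, at a log2 change of 0.38 (adjusted p = 0.015) that was under the size required. By day 20 Fgf15 had fallen to 13.2, 11.2, 10.5 and 10.3 FPKM (log2 change -3.29 ± 0.14, adjusted p = 4.1e-17). RA EBs stood at 8.25, 8.44, 8.35 and 10.5 FPKM and NPCs at 1.5, 1.0, 1.33 and 1.93, a further fall (log2 change -2.55 ± 0.20, adjusted p = 6.2e-12). NPCs ended below ESCs in mean level, 1.44 ± 0.387 FPKM against 2.3 ± 0.336.

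Fgf18, a ligand of bone and lung development that is also made in the brain, rose along both routes. It was at or under 0.32 FPKM in all ESC and EB day 4 libraries. At EB day 6 it was at 1.96, 1.43, 1.68 and 1.69 FPKM (log2 change 2.84 ± 0.42 over day 4, adjusted p = 2.2e-06). Day 9 averaged 2.71 ± 0.943 FPKM, day 12 averaged 1.31 ± 0.591 and day 20 averaged 2.79 ± 0.773, with overlap between days 6 and 9 and between days 12 and 20, and every library of day 12 under every library of day 9. The fall at day 12 (log2 change -1.10 ± 0.30, adjusted p = 0.0046) was -0.67 without the DMSO libraries, and without the BPA libraries its adjusted p was 0.055. In RA EBs Fgf18 was at 3.95, 3.15, 3.47 and 2.54 FPKM, above every EB day 4 library (log2 change 3.73 ± 0.39, adjusted p = 2.5e-09). NPCs had 4.82, 6.94, 5.54 and 5.18 FPKM, above every RA EB library, at a log2 change of 0.87 that did not reach the size required.

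Fgf9, a ligand of neurons and of the developing gonad and lung, was listed at 0 in the 4 ESC libraries. It had 6 counts over the 4 libraries of EB day 4. Scaled to library totals and taken as exact, these were 2.08-fold a floor of 3 counts over the ESC libraries. This call rests on few reads and was not made without the BPA libraries (adjusted p = 0.065). At EB day 9 it was at 0.38, 0.33, 0.16 and 0.33 FPKM (log2 change 3.02 ± 0.41 over day 6, adjusted p = 1.3e-06), and at day 20 it was at 0.88, 0.97, 1.18 and 0.78 (log2 change 1.74 ± 0.26 over day 12, adjusted p = 1.9e-06). RA EBs had 0.81, 0.72, 0.54 and 0.58 FPKM and NPCs 1.31, 1.44, 1.29 and 1.36. NPCs were therefore highest, without overlap with any other stage (log2 change 1.11 ± 0.22 over RA EBs, adjusted p = 9.5e-05). Fgf1, a ligand that lacks a secretion signal, was listed at or under 0.22 FPKM in all libraries before EB day 12, and at 1.22, 1.67, 1.43 and 0.37 FPKM at day 20. That was above day 12 by a log2 change of 2.17 ± 0.43 (adjusted p = 6.7e-05), with the DMSO library of day 20 inside the range of day 12. Fgf2, which is likewise exported without a signal and is often added to neural cultures as a protein, had 41 counts in all 32 libraries together. These counts refer to 1 transcript of 695 bases, so reads from other parts of the gene would be missed. Fgf2 was listed in 17 libraries, and EB day 20 held 20 of the counts, at 0.765 ± 0.31 FPKM. Nudt6, which shares sequence with it on the opposite strand, was also highest there, at 3.14 ± 0.739 FPKM.

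Counted by step, the 9 tested ligands split between called rises and called falls, a call being an adjusted p under 0.05 with a log2 change of at least 1 in size. At EB day 4 over ESCs 3 rose and 3 fell, where 28.0% of all genes tested were called (14.4% higher and 13.6% lower). At day 6 over day 4, 5 rose and 1 fell, against 19.5% of all genes (10.8% higher and 8.75% lower). The step to day 9 had 2 rises and 2 falls, against 14.7% of all genes (10.7% higher and 3.97% lower). At day 12 over day 9 none rose and 5 fell (Fgf3, Fgf4, Fgf8, Fgf10 and Fgf18), where 9.99% of all genes were called, 7.56% higher and 2.43% lower. The median log2 change of the 9 was -1.10 there, against -0.01 over all genes tested. At day 20 over day 12, 3 rose and 2 fell, against 26.4% of all genes (17.6% higher and 8.78% lower). RA EBs over EB day 4 gave 3 rises (Fgf9, Fgf10 and Fgf18) and 3 falls (Fgf4, Fgf8 and Fgf17), with 34.7% of all genes called (15.7% lower). Of these, Fgf10 was not called with limma on log2(FPKM + 1) (adjusted p = 0.12). NPCs over RA EBs gave 2 rises and 1 fall, against 35.5% of all genes (18.1% higher and 17.4% lower).

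The neural branch was compared with EBs of similar age. RA EBs of day 8, set against EBs of days 6 and 9, had 5 ligands lower and 1 higher, where 18.9% of all genes were called (8.62% higher and 10.3% lower). Lower were Fgf15 (log2 change -2.61 ± 0.13, adjusted p = 1.8e-15), Fgf4 (-4.82 ± 0.40), Fgf10 (-2.77 ± 0.31) and Fgf17 (-4.25 ± 0.53), along with Fgf8, whose 1 count stood against 1383 counts (ratio 0.00144, 95% interval 3.65e-05 to 0.00806). Fgf17 had 4 counts and Fgf4 had 12 over the 4 RA EB libraries, so the sizes of their falls are uncertain. Only Fgf9 was called higher, by 2.65 ± 0.26. The median log2 change of the 9 ligands was -2.61, against -0.01 over all genes tested. NPCs of day 10 against EBs of days 9 and 12 had 6 lower and 2 higher (38.8% of all genes called, 16.4% higher and 22.4% lower). Fgf15 differed most among ligands with counts in NPCs (log2 change -5.86 ± 0.17, adjusted p = 3.4e-21). Fgf8, with 0 counts, was 84.6-fold lower in NPCs at a floor of 3 counts over the 4 libraries, its EB counts taken as exact. Fgf9 and Fgf18 were higher, by 2.36 ± 0.20 and 1.68 ± 0.23. Against EBs of day 20, NPCs had 7 ligands lower and Fgf18 higher (1.26 ± 0.27), where 34.0% of all genes were called (10.1% higher and 23.9% lower). Among the 7, Fgf17 was not called without the DMSO libraries (adjusted p = 0.12) or without the BPF libraries (adjusted p = 0.083).

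Receptors were present throughout. Fgfr1, the main receptor of stem cells and mesoderm, ran at 21.6 ± 0.805 FPKM in ESCs, 29.6 ± 1.67, 43.3 ± 1.02, 32.4 ± 1.51, 26.5 ± 0.982 and 27.8 ± 2.74 at EB days 4, 6, 9, 12 and 20, 24.1 ± 1.31 in RA EBs and 23 ± 0.901 in NPCs. Fgfr2, prominent in epithelia and neural progenitors, was at 1.3 ± 0.0963 FPKM in ESCs and 12.1 ± 1.54, 12.9 ± 2.06, 26.6 ± 4.52, 23.2 ± 2.19 and 10.3 ± 1.71 in the EB series, with 24.5 ± 0.661 in RA EBs and 9.27 ± 1.14 in NPCs. Fgfr3, found in neural progenitors and cartilage, was at 1.6 ± 0.0753 FPKM in ESCs and 1.77 ± 0.25, 4.47 ± 0.161, 13.8 ± 2.49, 20.8 ± 1.79 and 9.28 ± 1.01 in the EBs, with 17.4 ± 1.74 in RA EBs and 8.62 ± 2.38 in NPCs. Its highest mean fell at EB day 12, the stage of the highest Fgf15 mean. Fgfr4, the receptor that FGF15 uses with Klb in liver, never averaged above 1.83 FPKM, its mean in RA EBs, and was lowest at EB day 6 (0.24 ± 0.0707). Of 11 receptor and co-receptor genes tested, 8 rose and 1 fell in RA EBs over EB day 4, where 34.7% of all genes were called, the largest changes being those of Fgfbp3, a carrier protein of FGFs (6.67 ± 0.26), Fgfbp1, another (-5.07 ± 0.33), and Flrt2, an adhesion protein that binds FGF receptors (3.74 ± 0.53). Over all genes tested the median was 0.03, against 2.29 for the list.

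Target and feedback genes of the FGF and ERK pathway were lower in RA EBs. Set against EBs of days 6 and 9, 9 of 19 were lower and 1 was higher, where 18.9% of all genes were called, with a median log2 change of -0.91 (over all genes -0.01). Etv5, a transcription factor induced by ERK, had a log2 change of -2.63 ± 0.16 and the feedback inhibitors Spry4 and Spry2 had -2.79 ± 0.28 and -1.96 ± 0.13. At EB day 4 over ESCs 7 of 19 rose and 2 fell, where 28.0% of all genes were called (14.4% higher and 13.6% lower). Dusp6, an ERK phosphatase, was at 29.9 ± 1.05 FPKM at EB day 4, against 2.78 ± 0.345 in ESCs (log2 change 3.45 ± 0.25, adjusted p = 2.8e-12), and the early response gene Egr1 rose by 4.08 ± 0.55. Over the list the median log2 change was 0.88 at that step, against 0.00 over all genes tested, and Fgf4 fell there, while Etv5 stood at 74.9 ± 2.88 FPKM at EB day 4 and 75.3 ± 1.16 in ESCs. Of the 12 other genes of the FGF family, 5 were tested, and Fgf5, a ligand of the primed epiblast, was the largest riser at that step (log2 change 9.66 ± 0.37). Of 12 adaptor genes, 1 rose and 1 fell at that step and 3 fell in RA EBs over EB day 4, where 34.7% of all genes were called. Shc1, which couples receptors to the Ras pathway, had the largest of these changes (-2.78 ± 0.18).

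**Figure D3:**
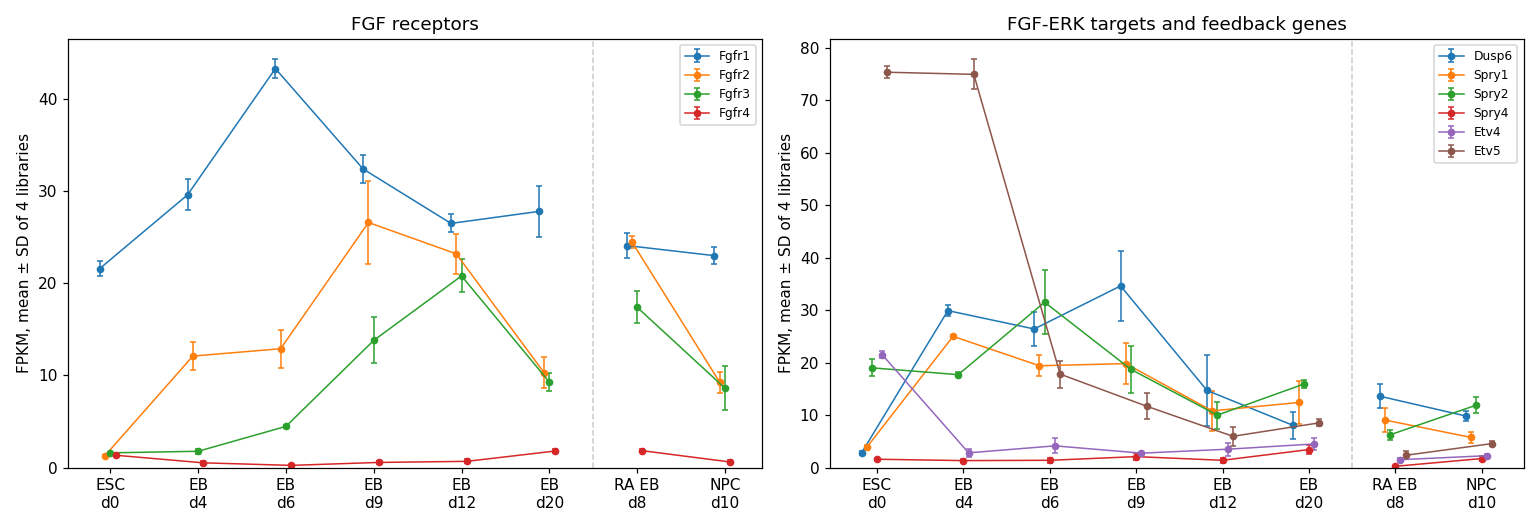
Left, FPKM of Fgfr1 to Fgfr4, and right, FPKM of 6 target and feedback genes (vertical axes, mean ± SD of 4 libraries) over the 8 stages (horizontal axes), with the neural branch right of the dashed line. Fgfr1 peaks at 43.3 FPKM at EB day 6, Fgfr3 at 20.8 FPKM at EB day 12, and Etv5 stands at 17.8 FPKM at EB day 6 after 74.9 at day 4.

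Bisphenols were compared with DMSO over the 8 stages and within each stage, where the 3 bisphenol libraries form a class set against 1 DMSO library assumed to vary like the others. At a single stage, treatment and library cannot be told apart. Over 8 stages Fgf15 alone among the ligands was called, lower with bisphenols by a log2 change of -0.38 ± 0.08 (adjusted p = 0.015), where 2.73% of all genes were called (1.04% higher and 1.69% lower). Taken apart, BPS was called for Fgf15 (-0.48 ± 0.11, adjusted p = 0.027), where 1.15% of all genes were called (0.621% higher and 0.525% lower). BPF gave -0.39 ± 0.11 for the same gene (adjusted p = 0.071), where 0.992% of all genes were called (0.422% higher and 0.569% lower). BPA gave -0.27 ± 0.10 (adjusted p = 0.37), where 0.166% of all genes were called (0.102% higher and 0.0640% lower). Both calls were lost without either of 2 stages: without EB day 9 or without EB day 12 the value for the 3 bisphenols was -0.28 or -0.29 (adjusted p = 0.17 each), and with limma on log2(FPKM + 1) it was -0.28 (adjusted p = 0.087). Between compounds no ligand was called in any of 3 pairs by edgeR or DESeq2, with 1 ligand at an unadjusted p under 0.05 for BPA over BPF, 0 for BPA over BPS and 1 for BPF over BPS. Over all genes, 0 were called for BPA over BPF, 1 (0.00640%, lower) for BPA over BPS and 0 for BPF over BPS. For Fgf15 the log2 difference of BPA over BPS was 0.21 (95% interval -0.02 to 0.44), of BPA over BPF 0.12 (-0.11 to 0.35) and of BPF over BPS 0.08 (-0.15 to 0.31). Of the 27 ligand differences between compounds, the intervals that excluded 0 were those of Fgf3 for BPF over BPS (-0.77, -1.35 to -0.19) and Fgf17 for BPA over BPF (0.60, 0.02 to 1.18).

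**Figure D4:**
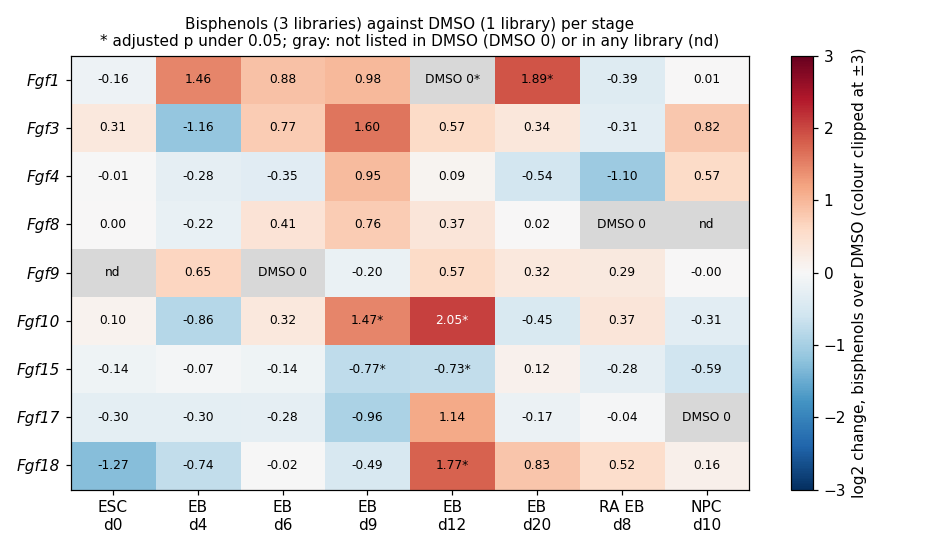
Log2 change of the 3 bisphenol libraries over the DMSO library for the 9 tested ligands (rows) at each stage (columns), with asterisks at an adjusted p under 0.05 and gray cells where the DMSO library listed the gene at 0 or no library listed it. Calls lie at EB days 9, 12 and 20, with Fgf15 at -0.77 and -0.73 and Fgf10 at 1.47 and 2.05 on days 9 and 12.

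The stages with calls were EB days 9, 12 and 20. At EB day 9 Fgf15 was lower and Fgf10 higher, where 7.49% of all genes were called (4.01% higher and 3.48% lower). Fgf15 was at 80.4, 64.2 and 58.1 FPKM with BPA, BPF and BPS, against 113 with DMSO (log2 change -0.77 ± 0.14, adjusted p = 0.00093). Fgf10 was at 3.06, 5.29 and 5.0 FPKM with bisphenols, against 1.57 with DMSO (1.47 ± 0.33, adjusted p = 0.0052). Both genes thus had their DMSO library outside the bisphenol range, on opposite sides. Fgf3, Fgf4 and Fgf8 had unadjusted p of 0.037, 0.014 and 0.037 there and log2 changes of 1.60, 0.95 and 0.76, and did not pass the adjusted threshold.

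At EB day 12 the ligands called were 4, 3 of them higher, where 18.9% of all genes were called (10.1% higher and 8.79% lower). Fgf15 was at 92.7, 99.0 and 80.1 FPKM with bisphenols, against 146 with DMSO (log2 change -0.73 ± 0.14, adjusted p = 0.00054). Fgf10 was at 1.49, 2.25 and 2.84 FPKM, against 0.52 with DMSO (2.05 ± 0.41, adjusted p = 0.00077), and Fgf18 was at 1.40, 1.66 and 1.73 FPKM, against 0.45 with DMSO (1.77 ± 0.52, adjusted p = 0.017). Fgf1 was at 0.22, 0.30 and 0.48 FPKM with bisphenols and listed at 0 with DMSO (adjusted p = 0.0089). Scaled to library totals and taken as exact, its 40 counts in the bisphenol libraries were 4.43-fold a floor of 3 counts in the DMSO library. Fgf18 was also above DMSO in all 3 bisphenol libraries at EB day 20, without a call. It was at 3.47, 3.17 and 2.80 FPKM there, against 1.70 with DMSO (log2 change 0.83). At EB day 20 Fgf1 was again called, at 1.22, 1.67 and 1.43 FPKM with bisphenols, against 0.37 with DMSO (1.89 ± 0.59, adjusted p = 0.024), where 19.6% of all genes were called (9.14% higher and 10.5% lower). With DESeq2 that adjusted p was 0.11, and without the BPF library it was 0.058.

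**Figure D5:**
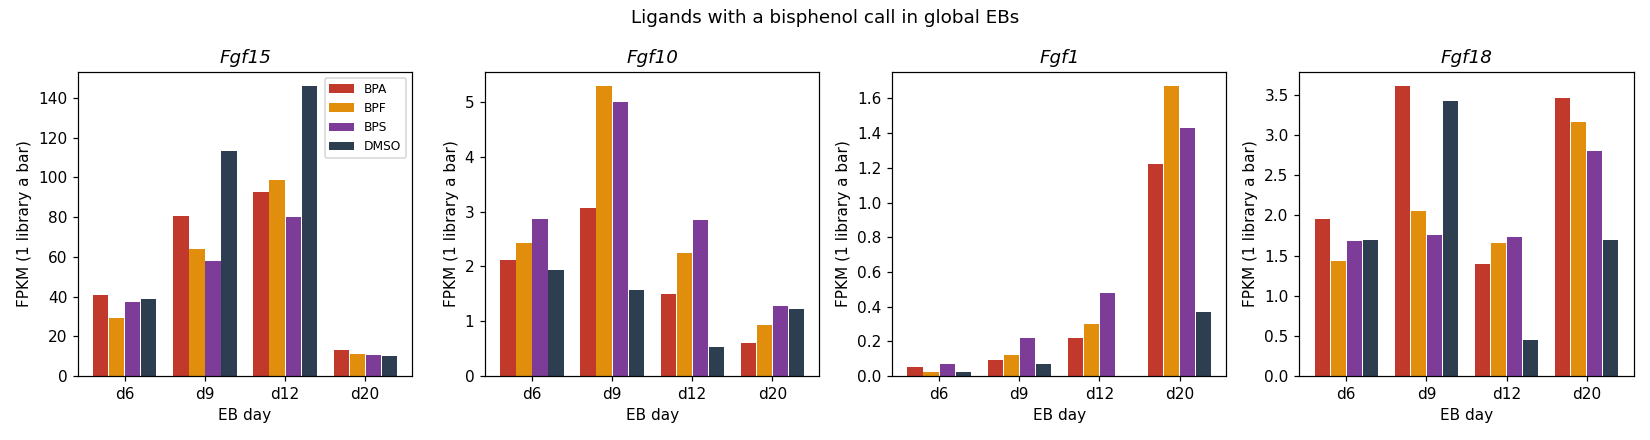
FPKM (vertical axes, from 0, 1 library a bar) of Fgf15, Fgf10, Fgf1 and Fgf18 in EBs of days 6, 9, 12 and 20 (horizontal axes) with BPA, BPF, BPS and DMSO. The DMSO bar of Fgf15 is the tallest on days 9 and 12, at 113 and 146 FPKM, and that of Fgf10 the shortest, at 1.57 and 0.52.

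Cell type markers moved in the same libraries. At EB day 12, 9 of 9 mesenchyme markers were higher with bisphenols, summing to 445, 469 and 452 FPKM with BPA, BPF and BPS, against 31.1 with DMSO. Of 7 cardiac markers 6 were higher (32.7, 107 and 264 FPKM against 3.99), and of 6 endothelial markers 5 (12.4, 18.1 and 28 against 2.74). Neural progenitor markers were lower in 7 of 8 (786, 684 and 671 FPKM against 1040 with DMSO) and neuron markers in 5 of 7 (688, 561 and 555 against 805). At EB day 9, 8 of 9 mesenchyme markers were higher (145, 184 and 205 FPKM against 47.1) and 6 of 8 neural progenitor markers lower (395, 363 and 327 against 512). The 10 isthmus and midbrain markers, the region where Fgf8 and Fgf15 are known from the embryo, had 2 higher and 1 lower at day 12 (174, 155 and 131 FPKM against 190). At EB day 20, 8 of 9 mesenchyme markers were higher, with a sum of 133 in the DMSO library, the lowest of 4. Neural progenitor markers summed to 461, 399 and 411 FPKM with BPA, BPF and BPS there, against 344 with DMSO. That order was opposite to days 9 and 12. Neuron markers at day 20 summed to 1430, 1200 and 1260 FPKM, against 1570 with DMSO. None of these markers was at 0 in all 4 libraries of these stages, and their part in the ligand results was not tested.

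Other stages gave no called ligand by the edgeR test, and DESeq2 likewise called 0. At unadjusted p under 0.05 there were 0 ligands in ESCs, EB day 4, EB day 6, RA EBs and NPCs. In ESCs 0 of all genes were called, with 257 at an unadjusted p under 0.05. The share of all genes called was 0.563% at EB day 4 (0.0320% higher and 0.531% lower), 2.55% at EB day 6 (1.55% higher), 2.34% in RA EBs (0.902% higher and 1.44% lower) and 2.25% in NPCs (0.313% higher and 1.94% lower). In ESCs Fgf4 differed from DMSO by a log2 change of -0.01 (95% interval -0.35 to 0.33). At EB day 6 Fgf8 was at 18.6, 21.9 and 18.5 FPKM with bisphenols, against 14.7 with DMSO (0.41 ± 0.31, adjusted p = 0.67), so the DMSO library was lowest without a call. The same order, all 3 bisphenol libraries above DMSO, held for Fgf8 at days 9 and 12. At EB day 6, 5 of 7 tested streak markers were higher with bisphenols. They summed to 166, 243 and 231 FPKM with BPA, BPF and BPS, against 41.9 with DMSO, and their part in the order of Fgf8 was not tested. In NPCs the 95% interval of the log2 change of Fgf9 ran from -0.66 to 0.66, and that of Fgf18 from -0.48 to 0.80.

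Over the 4 global stages together, Fgf1 was higher with bisphenols (log2 change 2.01 ± 0.46, adjusted p = 0.004) and Fgf15 lower (-0.45 ± 0.11, adjusted p = 0.0069), where 20.4% of all genes were called (9.77% higher and 10.6% lower). Fgf10 and Fgf8 gave 0.77 ± 0.28 (adjusted p = 0.052) and 0.50 ± 0.20 (adjusted p = 0.078). The pooled signs of Fgf15 and Fgf10 did not hold at EB day 20. Per stage, the log2 change of Fgf15 was -0.14, -0.77 and -0.73 at days 6, 9 and 12, and 0.12 at day 20. That of Fgf10 was 0.32, 1.47 and 2.05 at days 6, 9 and 12, and -0.45 at day 20. Fgf15 was not called without EB day 9 (-0.31, adjusted p = 0.089), without EB day 12 (-0.33, adjusted p = 0.11), without BPF (adjusted p = 0.062) or without BPS (adjusted p = 0.051), and Fgf1 was not called without EB day 20 (adjusted p = 0.051). In the neural branch no ligand was called or had an unadjusted p under 0.05, where 0.0199% of all genes were called, all lower. Fgf15 there was -0.36 ± 0.24 (adjusted p = 0.65), and the difference between branches was -0.09 ± 0.26 (adjusted p = 0.88), so a difference between branches was not shown. For Fgf1 the difference between branches was 2.28 ± 1.16 (adjusted p = 0.22), and 8.79% of all genes were called in that comparison (3.99% lower).

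Pathway genes were called in the same contrasts. In the global stages 10 of 19 target and feedback genes were higher with bisphenols and 2 lower, where 20.4% of all genes were called, with a median log2 change of 0.31, against -0.03 over all genes tested. Egr1 changed by 1.18 ± 0.20 (adjusted p = 0.00025), Dusp6 by 0.87 ± 0.14 and the ERK-induced transcription factor Etv4 by 0.73 ± 0.15. Without EB day 12 the 12 calls became 6. At EB day 12 alone 9 were higher and 3 lower, where 18.9% of all genes were called. Dusp6 was at 16.1, 20.8 and 16.9 FPKM with bisphenols, against 4.92 with DMSO (1.82 ± 0.16, adjusted p = 8.8e-09). Egr1 was at 16.4, 18.5 and 21.8 FPKM there, against 3.96 with DMSO (2.21 ± 0.27), and Fos, another early response gene, changed by 1.58 ± 0.39. Of 21 heparan sulfate genes 10 were higher and 2 lower at that stage, against the same 18.9% of all genes, led by the sulfatase Sulf1 (1.62 ± 0.13) and the glypican Gpc3 (1.29 ± 0.18). Flrt2 was at 11, 9.34 and 9.03 FPKM with bisphenols, against 1.25 with DMSO (2.93 ± 0.21, adjusted p = 3.5e-10). Target genes differed between the branches in 7 of 19, 6 higher and 1 lower in global EBs, where 8.79% of all genes were called, led by Egr1 (1.81 ± 0.32, adjusted p = 0.0017), and in 2 without RA EBs. The marker sums given for EB day 12 moved in the same libraries, and their part in these results was not tested.

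In NPCs the called pathway genes were lower with bisphenols. Egr1 was at 10.9, 7 and 6.38 FPKM with BPA, BPF and BPS, against 17.4 with DMSO (-1.10 ± 0.22, adjusted p = 0.0033), and it was the 1 target gene of 19 called. Of 21 heparan sulfate genes 0 were higher and 6 lower, where 2.25% of all genes were called. The largest changes were those of Sulf1 (-0.98 ± 0.12), the glypican Gpc4 (-0.88 ± 0.17) and the syndecan Sdc2 (-0.76 ± 0.17). In these libraries 5 of 9 mesenchyme markers were lower with bisphenols, summing to 195, 172 and 201 FPKM, against 413 with DMSO, and their part in these results was not tested.

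Genes with the most similar pattern were sought for the 4 ligands that averaged 5 FPKM or more at some stage. Likeness was Pearson's r of log2(FPKM + 1) over the 32 libraries among 11414 candidates, a description in which libraries of a stage share their stage. Fgf4 was closest to Gdf3 (r = 0.993), a TGF-beta family ligand of stem cells, then Urah and Slc28a1 (0.987 each). Fgf8 was closest to Mogat2 (0.976), Lrig3 (0.941) and T (0.939), the transcription factor brachyury of the primitive streak. Fgf15 was closest to Ano1 (0.954), a chloride channel, Prcp (0.943) and Dmbx1 (0.924), a homeobox gene of the midbrain. Among the genes closest to Fgf18 were Slain2 (0.92) and the semaphorin receptor Plxna2 (0.919).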

How the data were processed

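RNA from 32 samples was extracted with Trizol and a Qiagen kit, and libraries were made at BGI, per the labels' protocols. The mm10 build and the tools RSEM, HISAT and Bowtie2 appear in the submitters' processing notes, which give no roles or versions. The authors deposited expected counts (estimated reads per gene), FPKM and a transcript length. The lowest deposited FPKM was 0.01, and unlisted genes were taken as 0.

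Expected counts were rounded and tested with edgeR 4.0.16 (quasi-likelihood, TMM factors 0.923 to 1.142) in R 4.3.3. The filter of 1 CPM in 4 or more libraries kept 15632 genes (15084 when comparing branches). The designs were stage plus treatment (21 residual degrees of freedom), stage by bisphenol or DMSO (16), and branch by bisphenol or DMSO over 24 libraries (16). SEs come from the F values. Alternatives were DESeq2 1.42.0, limma 3.58.1 (pseudocounts 1 and 0.1), RLE and upper-quartile scaling, no filter, a 5 CPM filter and leaving out libraries. Up to 3 called members with the largest change were named per pathway list. Members and lists were chosen with earlier results of these data known. Positions and promoters are RefSeq's, on GRCm38.p6. RefSeq matched 20551 genes by identifier and 9 by transcript, and 52 had no match. Floors of 3 counts bound only the group at 0 and take the counts of the other group as exact. Count ratios cover counting error only. A gene with a pattern like that of Fgf18 is not reported here.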

Additional observations from a re-analysis of the deposited data

Results flagged for a closer look

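Of 36 groups of 4 libraries, formed by ligand and stage with a mean of 1 FPKM or more, 1 held a library set apart from the other 3. Fgf15 in RA EBs was at 8.25, 8.44 and 8.35 FPKM with BPA, BPF and BPS, against 10.5 FPKM with DMSO, and the gap between the DMSO library and the next highest took up a share of 0.917 of the range. The test applied was Dixon's at 95%, by which chance sets apart about 1 in 20 groups.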

How the results depend on the processing

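No paired analysis was possible because the labels give no replicate numbers to pair by, beyond the model of stage plus treatment, which compares stages within treatments and treatments within stages. No called ligand or called pathway gene named per list reversed direction in any alternative, and genes without a call were not checked for this. With limma on log2(FPKM + 1), which shrinks changes of low genes, the ligands called were 1 at EB day 9 over day 6, 1 at day 12 over day 9, 2 at day 20 over day 12, 1 in NPCs over RA EBs, 4 in NPCs over EBs of days 9 and 12, and 4 in NPCs over EB day 20. For bisphenols over DMSO it called 0 over 8 stages, 0 for BPS, 2 at EB day 20 and 4 in global EBs. With a pseudocount of 0.1 it called 0 over 8 stages and 0 for BPS. The filter of 5 CPM left 3 at EB day 20 over day 12, 0 for bisphenols at EB day 20 and 1 in global EBs. DESeq2 called 0 at EB day 20.

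Leaving out a treatment, stage or library gave 5 to 7 calls at EB day 4 over ESCs, 5 to 6 at day 6, 3 to 4 at day 9, 4 to 5 at day 12 and 5 to 7 at day 20. RA EBs gave 6 to 6 over EB day 4 and 6 to 7 over EBs of days 6 and 9. NPCs gave 2 to 3 over RA EBs, 8 to 8 over EBs of days 9 and 12 and 7 to 8 over EB day 20. Bisphenols gave 0 to 2 over 8 stages (BPS 0 to 2), 2 to 3 at EB day 9, 4 to 4 at day 12, 0 to 1 at day 20 and 1 to 4 in global EBs, and every other comparison gave 0 to 0. Fgf9 in NPCs over RA EBs was 0.99 under upper-quartile scaling, just under the size required. Depth limits Fgf1, Fgf2 and Fgf9, which had 295, 41 and 612 counts in all libraries together. For Fgf2 the counted transcript of 695 bases is a further limit.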
